A study of Mus musculus with 6 samples.

Results

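A set of 31 transcripts of the type I interferon response was examined in mouse gingiva, the mucosa that surrounds the teeth. The members were given by name, as widely used interferon-stimulated genes with their sensors and transcription factors, and all 31 were found among the 48709 genes of the count table and passed the filter on low counts that left 17757 genes tested. The series compared 3 libraries labelled Plg KO, from mice deficient in Plg, with 3 labelled Plg WT, from wild-type littermates, all of strain C57BL/6 and 12 weeks of age. Plg encodes plasminogen, the precursor of the fibrin-dissolving protease plasmin. Total gene counts ran from 26183389 to 36429150 per library. The labels name no allele, treatment or sex, and do not say whether a library came from 1 animal or a pool, so a p-value here weighs a difference against the variation among these libraries, part of which may be technical.

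Interferon-stimulated genes are switched on when interferon alpha or beta binds its receptor, IFNAR, and the kinases JAK1 and TYK2 phosphorylate signal carriers such as STAT2. With IRF9 these form a complex that binds a short promoter element, the interferon-stimulated response element. The products detect foreign nucleic acid, amplify the signal, restrain it, or block viral growth, and in many tissues the same genes are known to be held at a low tonic level in the absence of infection. In bulk tissue, fewer cells that express such a gene and less of its RNA per cell cannot be told apart.

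The levels of these genes split the libraries in a way that crossed the genotype. Plg WT 3 had the highest level of 28 of the 31 genes (19.3% of all tested genes peaked there), whereas Plg WT 1 lay within or below the range of the Plg KO libraries for 29. The summed level of the 31 genes was 248.1, 537.3 and 719.6 CPM (counts scaled to library size with TMM factors) in Plg WT 1, 2 and 3, and 305.8, 271.2 and 251.7 CPM in Plg KO 1, 2 and 3. The 3 Plg KO libraries were thus close to each other and to Plg WT 1, and the other two Plg WT libraries stood above all of them. Of the 31 genes, 28 had a negative log2 difference (Plg KO minus Plg WT) and 3 a positive one, and the median was -0.72, against -0.00 over all tested genes. The quasi-likelihood F test of edgeR, adjusted by Benjamini-Hochberg, called 0 of the 31 at an adjusted p under 0.05, where 0.237% of all tested genes were called. At an unadjusted p under 0.05, 6 of the 31 were lower and 0 higher, against 4.27% and 4.97% of all tested genes. DESeq2 called 1 member, Dhx58, lower (adjusted p = 0.0460), where it called 0.721% of all genes lower, and limma-voom called 0, against 0.231% of all genes.

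**Figure D1:**
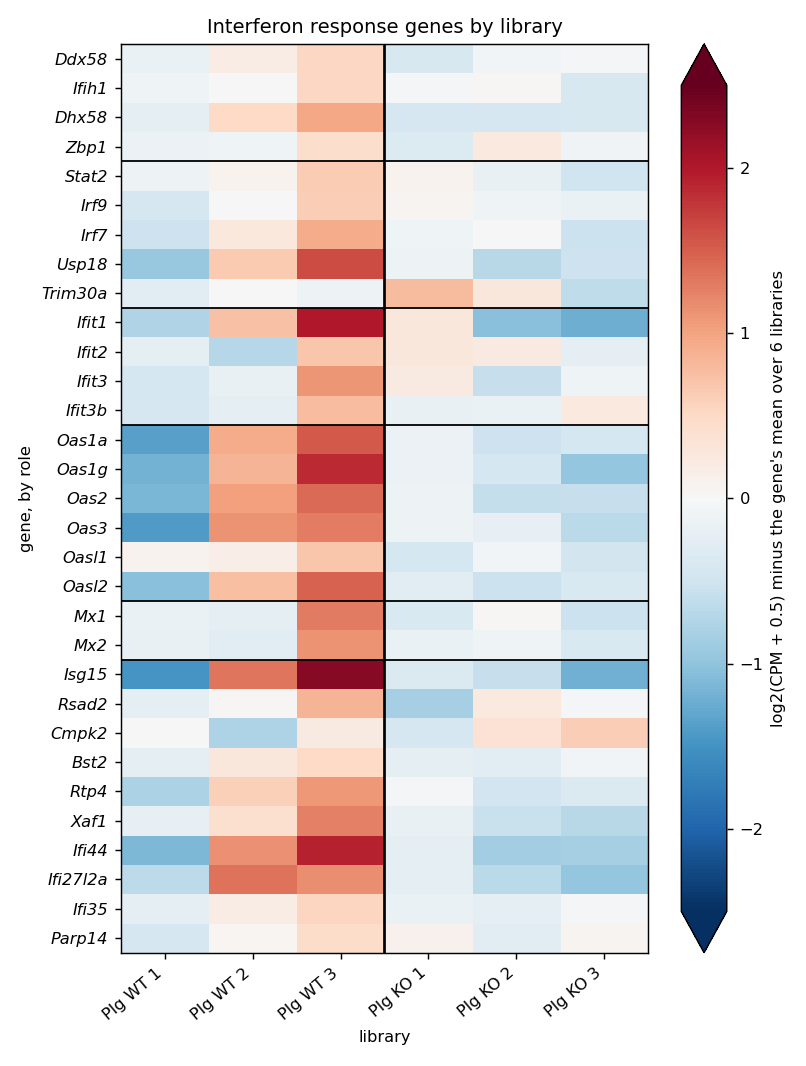
Each row is a gene, grouped by role, and each column a library; the colour is log2(CPM + 0.5) minus the gene's mean over the 6 libraries. Plg WT 3 is the highest library for 28 of 31 genes, while Plg WT 1 resembles the Plg KO columns or lies below them.

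The number of members called depended on Plg WT 1, and the size of the difference depended most on Plg WT 3. Each library was left out in turn. Plg WT 1 had the lowest summed level of the members, so leaving it out narrowed the spread of that level among the Plg WT libraries. Calls made without it are therefore no independent support. Without Plg WT 1, 8 of the 31 genes were called lower in Plg KO and 0 higher (adjusted p from 0.0292 to 0.0498). In that fit 0.195% of all tested genes were called lower and 1.02% higher, and the median log2 difference of the members was -0.85. These 8 were Ifi27l2a, Dhx58, Isg15, Oas2, Ifi44, Oas1a, Oasl2 and Oas3. Without Plg WT 2 or Plg WT 3, edgeR called 0 members, and 0.0109% and 0.0163% of all genes. Without Plg WT 3 the median log2 difference was -0.19, and 22 of 31 members were negative in place of 28. In 18 of the 31 genes both Plg WT 2 and Plg WT 3 lay above every Plg KO library, a pattern chosen after the values were seen, which held for 15.8% of all tested genes. Complete separation of the groups was found for 2 members, Dhx58 and Oasl1, both with Plg KO below Plg WT, against 7.18% of all tested genes in that direction, and for 0 members in the other direction, against 7.51%.

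The element bound by the IRF9 complex was looked for in the promoters, since the members are known for it. The search used the core GAAANNGAAA, on both strands and counting overlapping matches, in the 250 bases before each gene's start in RefSeq (build GRCm38.p6). A window was found for 22 of the 31 members and 11 of these held at least 1 match (50%), against 3.46% of the 27025 genes with a window. The promoters of the 4 members with the smallest p that had a window are shown first, 5′ to 3′, with matches in capitals and the Ifi44 window ended at the first annotated exon base.
Isg15, chr4:156200819-156201068, minus strand: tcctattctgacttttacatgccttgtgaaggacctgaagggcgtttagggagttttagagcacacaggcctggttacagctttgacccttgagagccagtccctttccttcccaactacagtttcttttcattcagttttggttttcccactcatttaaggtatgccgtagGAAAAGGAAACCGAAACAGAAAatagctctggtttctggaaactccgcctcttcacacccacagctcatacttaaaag
Oasl1, chr5:114922990-114923239, plus strand: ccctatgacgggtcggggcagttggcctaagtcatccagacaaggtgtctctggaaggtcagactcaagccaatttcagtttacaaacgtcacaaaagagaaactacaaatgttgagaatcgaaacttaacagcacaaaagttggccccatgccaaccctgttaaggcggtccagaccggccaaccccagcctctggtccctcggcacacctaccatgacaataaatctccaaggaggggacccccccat
Xaf1, chr11:72301379-72301628, plus strand: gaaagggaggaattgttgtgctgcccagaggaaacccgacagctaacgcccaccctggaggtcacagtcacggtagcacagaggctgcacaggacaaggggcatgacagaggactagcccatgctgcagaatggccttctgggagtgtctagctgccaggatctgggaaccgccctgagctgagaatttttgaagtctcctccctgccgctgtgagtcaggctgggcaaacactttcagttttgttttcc
Ifi44, chr3:151749961-151750160, minus strand: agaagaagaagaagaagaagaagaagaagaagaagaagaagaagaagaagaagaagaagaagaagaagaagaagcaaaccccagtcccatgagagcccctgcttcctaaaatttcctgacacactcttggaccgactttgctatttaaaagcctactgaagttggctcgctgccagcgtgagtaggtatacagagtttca
Isg15 held 3 overlapping matches within the printed window and the other three promoters held none, which says only that these letters are not in the windows shown. Stretches around the matches of 6 further members follow, chosen after the matches were seen to show how the paralogs resemble each other.
Ifit1, chr19:34640770-34640828, plus strand: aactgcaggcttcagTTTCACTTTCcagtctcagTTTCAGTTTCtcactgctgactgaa
Ifit3, chr19:34583358-34583431, plus strand: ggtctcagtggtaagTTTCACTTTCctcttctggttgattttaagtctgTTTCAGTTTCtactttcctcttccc
Ifit3b, chr19:34607754-34607827, plus strand: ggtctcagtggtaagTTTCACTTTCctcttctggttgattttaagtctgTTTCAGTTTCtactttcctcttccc
Oas1a, chr5:120907526-120907560, minus strand: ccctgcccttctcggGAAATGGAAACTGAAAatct
Oas1g, chr5:120887614-120887646, minus strand: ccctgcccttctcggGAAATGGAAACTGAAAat
Bst2, chr8:71537572-71537617, minus strand: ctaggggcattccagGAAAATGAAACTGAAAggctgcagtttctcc
The Ifit3 and Ifit3b stretches were the same over all 74 bases, and the Oas1a and Oas1g stretches over the 33 bases that both hold. Over the whole windows, aligned without gaps at the first match, 188 of 218 bases were the same for Ifit3 and Ifit3b and 158 of 248 for Oas1a and Oas1g. A match describes the letters and not a site in use.

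Among the sensors of foreign RNA and DNA, Dhx58 differed most clearly. Dhx58 (ENSMUSG00000017830, GRCm38 chromosome 11, 100694884 to 100704271) encodes LGP2, which tunes the RNA sensors RIG-I and MDA5. Its level was 29.7, 49.7 and 69.2 CPM in Plg WT libraries 1, 2 and 3 and 26.0, 26.2 and 26.6 CPM in Plg KO 1, 2 and 3. The Plg KO libraries were nearly equal and lay just under Plg WT 1. The log2 difference was -0.91 ± 0.27 (SE) with an adjusted p of 0.318, or -1.18 ± 0.15 with an adjusted p of 0.0306 without Plg WT 1. Without Plg WT 2 the adjusted p was 0.697, and without Plg WT 3 it was 0.563. Exons of Dhx58 overlap those of Dhx58os, and without strand information reads of the overlap cannot be assigned to one of the pair. The same limit holds for Irf9, Irf7, Usp18, Oasl1, Rtp4, Ifi35 and Parp14, whose exons each overlap those of another gene. Ddx58, which encodes RIG-I, had 26.9 ± 6.42 CPM (SD, n = 3) in the Plg WT libraries and 20.7 ± 2.84 in Plg KO, and Ifih1, which encodes MDA5, had 10.8 ± 2.82 and 8.85 ± 1.49 CPM. Zbp1, a sensor of Z-form nucleic acid that can trigger cell death, had 3.01 ± 0.836 and 2.73 ± 0.648 CPM. For these 3 sensors the groups overlapped, with log2 differences of -0.38 ± 0.19, -0.29 ± 0.22 and -0.15 ± 0.28 in that order, and Plg WT 3 exceeded Plg WT 1 by 1.59 to 1.62 times.

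Among the transcription factors that carry the response, all 3 members had negative log2 differences and overlapping groups. Stat2 had 24.2 ± 7.11 CPM in the Plg WT libraries and 17.98 ± 3.68 in Plg KO (log2 difference -0.43 ± 0.24), and Irf9 had 26.96 ± 10.05 and 23.34 ± 2.001 CPM (-0.21 ± 0.25). Irf7, the factor that amplifies interferon production, had 15.01, 26.2 and 41.8 CPM in Plg WT 1, 2 and 3, and 20.2, 21.5 and 14.8 CPM in Plg KO 1, 2 and 3. Its 2 higher Plg WT libraries lay above all Plg KO libraries and Plg WT 1 lay among them. None of the 3 passed the test (adjusted p from 0.652 to 0.866). Usp18, which removes ISG15 from proteins and blocks the interferon receptor as feedback, ranged more widely, with 4.67, 15.2 and 30.2 CPM in Plg WT libraries 1, 2 and 3 and 8.61, 5.63 and 6.47 CPM in Plg KO 1, 2 and 3. Its log2 difference was -1.27 ± 0.58 (adjusted p = 0.575), or -1.71 ± 0.31 without Plg WT 1 (adjusted p = 0.0626). Without Plg WT 2 it was -1.33 (adjusted p = 0.886), and without Plg WT 3 it was -0.52 (adjusted p = 0.952). Trim30a, which restrains Toll-like receptor signalling, went the other way, with 2.11 ± 0.250 CPM in the Plg WT libraries and 2.93 ± 1.56 in Plg KO (0.48 ± 0.41, adjusted p = 0.794). The Plg KO spread of Trim30a held 4.45 CPM in Plg KO 1 and 1.34 CPM in Plg KO 3, above and below every Plg WT library.

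The oligoadenylate synthetase family, whose enzymes make the second messenger that activates RNase L, had the order Plg WT 3, Plg WT 2, Plg WT 1 from high to low in all 6 members. The 6 genes lie together on chromosome 5 in a pair of groups, Oasl1 and Oasl2 between 114896936 and 114937915 and the other four between 120730333 and 120907521. Oas2 was at 1.20, 7.18 and 9.61 CPM in Plg WT libraries 1, 2 and 3 and at 2.94, 1.98 and 2.04 CPM in Plg KO 1, 2 and 3. Oas1a was at 1.09, 7.25 and 11.3 CPM in the Plg WT libraries and at 3.16, 2.33 and 2.49 CPM in Plg KO, in the same order of libraries. In both genes Plg WT 1 was the lowest of all 6 libraries and Plg WT 3 the highest. Oas3 rested on few reads, with 6, 95 and 119 counts in the Plg WT libraries and 42, 27 and 22 counts in Plg KO. Oas1g had 7, 65 and 164 counts in the Plg WT libraries and 34, 17 and 11 counts in Plg KO, so that Plg WT 3 was 27.5 times Plg WT 1 in CPM. Both showed the order seen in Oas2 among the Plg WT libraries. Oasl2, a member with ubiquitin-like domains, was at 4.31, 16.2 and 27.3 CPM in the Plg WT libraries and at 7.80, 6.37 and 7.11 CPM in Plg KO. Oasl1, which is known to limit translation of Irf7, departed from the rest in that Plg WT 1 was not low: it was at 6.06, 6.39 and 9.48 CPM in the Plg WT libraries and at 3.995, 5.36 and 3.98 CPM in Plg KO, with no overlap of the groups.

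Log2 differences in this family ran from -2.03 in Oas1g to -0.72 in Oasl1, with a median of -1.32, and 0 of 6 were called with all libraries. Oasl1 had the smallest adjusted p (0.365), with a log2 difference of -0.72 ± 0.23. In all 6 genes Plg WT 2 and Plg WT 3 lay above every Plg KO library. With all libraries, Oas2, Oas1a, Oasl2 and Oas3 had log2 differences of -1.36 ± 0.65, -1.29 ± 0.69, -1.16 ± 0.56 and -1.39 ± 0.88. Their adjusted p ran from 0.593 to 0.711. Without Plg WT 1 the differences were -1.85 ± 0.25, -1.80 ± 0.25, -1.61 ± 0.24 and -1.95 ± 0.32, and these 4 were called. Plg WT 1 was the lowest library in each, so these calls are no independent support. Without Plg WT 2 or Plg WT 3 the adjusted p of the 4 ran from 0.917 to 0.976. Oas1a and Oas1g are close copies: 65.1% of the 37-base windows of Oas1a transcripts, the length of a sequenced read, also occur in Oas1g. The sources used here do not say how shared reads were counted, so the split between the pair is uncertain.

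The Ifit family, proteins that bind foreign RNA ends and block its translation, did not vary as one. The 4 genes lie in a row on chromosome 19, from 34550694 to 34650009. Ifit1 had 4.09, 12.3 and 30.5 CPM in Plg WT libraries 1, 2 and 3 and 8.83, 3.22 and 2.80 CPM in Plg KO 1, 2 and 3. Plg KO 1 thus lay above Plg WT 1, and the log2 difference was -1.65 ± 0.73 (adjusted p = 0.562). Ifit2 had 1.97, 1.29 and 4.26 CPM in the Plg WT libraries and 3.08, 2.91 and 2.02 CPM in Plg KO, with Plg WT 2 the lowest library. Ifit3 had 3.68, 4.50 and 11.7 CPM in the Plg WT libraries and 6.15, 3.34 and 4.79 CPM in Plg KO, and Ifit3b had 1.28, 1.54 and 3.62 CPM and 1.62, 1.63 and 2.32 CPM. For Ifit2, Ifit3 and Ifit3b Plg WT 3 was again the highest library and Plg KO 1 again lay above Plg WT 1, but Plg WT 2 did not stand above the Plg KO libraries. Their log2 differences were 0.09 ± 0.44, -0.47 ± 0.46 and -0.20 ± 0.42. Without Plg WT 3 those of Ifit3 and Ifit3b were 0.23 and 0.40. Of the 37-base windows of Ifit3 transcripts 57.8% also occur in Ifit3b, so the values of this pair are uncertain as well.

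Mx1 and Mx2, neighbouring genes on chromosome 16 for dynamin-like antiviral GTPases, were near the floor of detection. C57BL/6 mice are known to carry a defective Mx1 allele. Mx1 had 19, 13 and 72 counts in Plg WT 1, 2 and 3 and 14, 17 and 10 counts in Plg KO 1, 2 and 3, and Mx2 had 19, 13 and 63 counts and 20, 15 and 14 counts. Only Plg WT 3 stood apart, in both genes, and Plg WT 1 and 2 were at or near the range of Plg KO. The log2 differences were -1.34 ± 0.71 and -0.99 ± 0.62 (adjusted p = 0.638 and 0.704), and without Plg WT 3 they were -0.19 for Mx1 and 0.03 for Mx2.

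**Figure D2:**
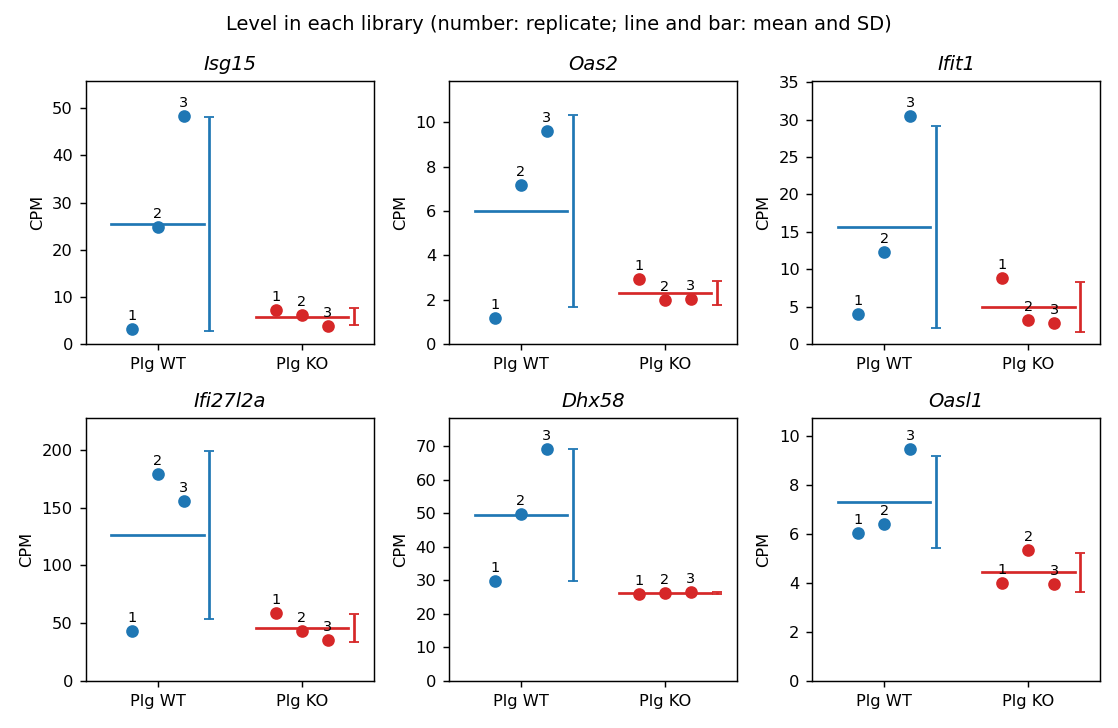
Points give the CPM of 6 genes in each library, numbered by replicate, with the group mean as a line and the SD as a bar (n = 3 each). Isg15, Oas2, Ifit1 and Ifi27l2a show Plg WT 1 among or below the Plg KO libraries, and Dhx58 and Oasl1 are the members whose groups did not overlap.

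Isg15 had the largest log2 difference of the 31 genes, and a wide spread among the Plg WT libraries. Isg15 (ENSMUSG00000035692, GRCm38 chromosome 4, 156199424 to 156200818) encodes a ubiquitin-like protein that is attached to other proteins. It had 3.14, 24.8 and 48.4 CPM in Plg WT libraries 1, 2 and 3 and 7.32, 6.22 and 3.87 CPM in Plg KO 1, 2 and 3. Plg WT 1 was the lowest of the 6 libraries and Plg WT 3 was 15.4 times higher. The group means were 25.4 ± 22.6 and 5.80 ± 1.76 CPM, and the log2 difference of -2.13 ± 0.81 did not pass the test (adjusted p = 0.468). Without Plg WT 1 it was -2.66 ± 0.35 (adjusted p = 0.0341). Without Plg WT 2 it was -2.15 (adjusted p = 0.807), and without Plg WT 3 it was -1.26 (adjusted p = 0.850). Ifi44, an interferon-induced cytoplasmic protein, had 0.928, 6.43 and 11.3 CPM in the Plg WT libraries and 2.13, 1.20 and 1.26 CPM in Plg KO, with log2 differences of -2.003 ± 0.77 (adjusted p = 0.470) and -2.52 ± 0.35 without Plg WT 1 (adjusted p = 0.0375). Ifi27l2a, a small hydrophobic membrane protein, was the most abundant member per length, at 272.9 CPM per kilobase of exon in the Plg WT libraries and 99.2 in Plg KO. It had 43.6, 179.4 and 156.1 CPM in the Plg WT libraries and 59.2, 43.2 and 35.4 CPM in Plg KO, and was the one member whose highest library was Plg WT 2. Its log2 difference was -1.46 ± 0.48 (adjusted p = 0.376), or -1.87 ± 0.21 without Plg WT 1 (adjusted p = 0.0292). Without Plg WT 2 it was -1.12 (adjusted p = 0.820), and without Plg WT 3 it was -1.28 (adjusted p = 0.688). For Ifi44 the same fits gave -1.98 (adjusted p = 0.821) and -1.24 (adjusted p = 0.850).

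The remaining effectors varied less. Xaf1, an antagonist of an inhibitor of apoptosis, had 4.80, 7.50 and 14.1 CPM in Plg WT libraries 1, 2 and 3 and 4.86, 3.65 and 3.25 CPM in Plg KO 1, 2 and 3 (log2 difference -1.16 ± 0.39, adjusted p = 0.382). Bst2, or tetherin, which holds budding virus at the cell surface, had 11.4, 16.4 and 19.0 CPM in the Plg WT libraries and 11.3, 10.99 and 12.7 CPM in Plg KO (-0.41 ± 0.19, adjusted p = 0.588). In both genes a single Plg KO library lay above Plg WT 1. Rtp4, a transporter chaperone of membrane receptors, had 18.6 ± 10.5 CPM in the Plg WT libraries and 10.7 ± 1.87 in Plg KO (-0.79 ± 0.43). Ifi35, which partners with the interferon-induced protein NMI, had 31.4 ± 8.40 and 24.6 ± 1.80 CPM (-0.35 ± 0.19), and the ADP-ribosyltransferase Parp14 had 3.94 ± 1.31 and 3.68 ± 0.562 CPM (-0.09 ± 0.28). None of these 5 passed the test with all libraries or without Plg WT 1.

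Rsad2 and Cmpk2 lie side by side on chromosome 12 and are read in opposite directions. Rsad2 encodes viperin, which makes a chain-terminating nucleotide, and Cmpk2 a kinase of pyrimidine nucleotides. Rsad2 had 3.98, 4.89 and 8.97 CPM in Plg WT libraries 1, 2 and 3 and 2.46, 5.71 and 4.59 CPM in Plg KO 1, 2 and 3. Cmpk2 had 1.91, 0.928 and 2.34 CPM in the Plg WT libraries and 1.32, 2.60 and 3.22 CPM in Plg KO. Cmpk2 was the one member whose highest library was Plg KO 3. The log2 differences were -0.49 ± 0.40 and 0.46 ± 0.44 (adjusted p = 0.776 and 0.818), so neither passed and the difference between the pair was not tested.

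**Figure D3:**
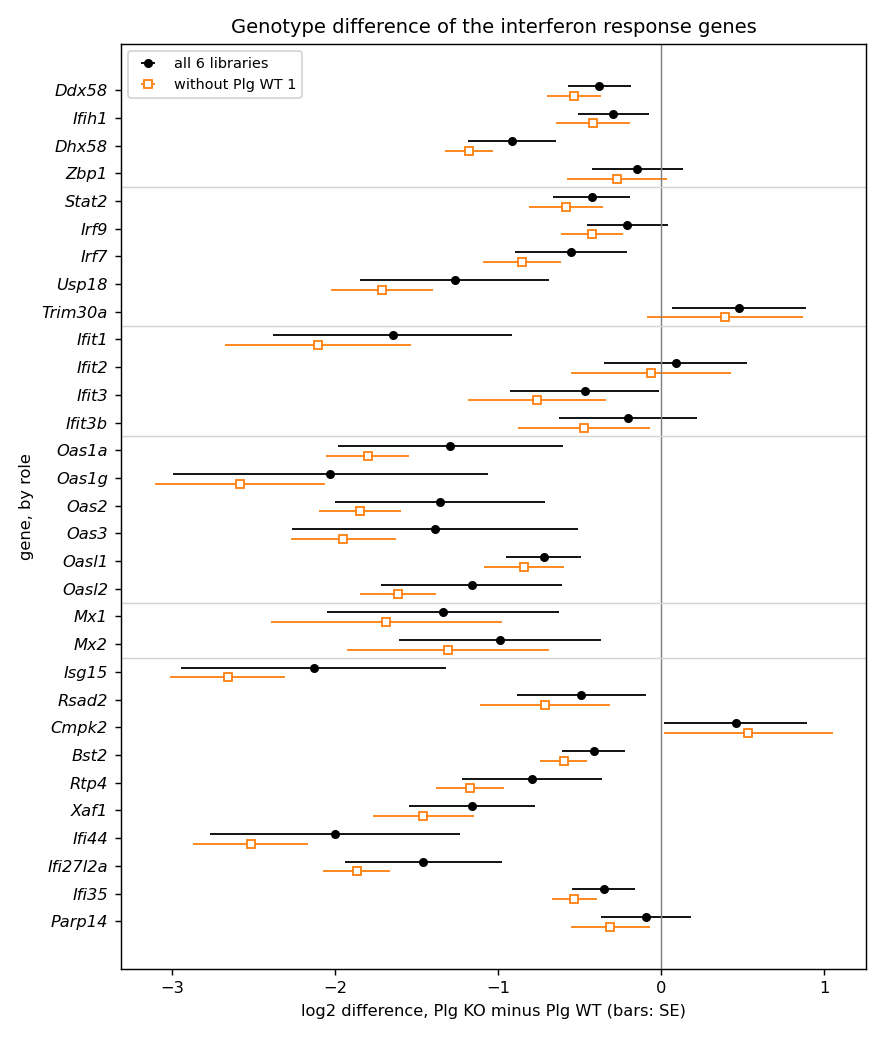
Log2 differences of the 31 genes, Plg KO minus Plg WT, are shown with their SE for all 6 libraries (filled circles) and without Plg WT 1 (open orange squares). With all libraries 28 of 31 lie below 0 and none is called; without Plg WT 1 the 8 called genes lie between -1.18 and -2.66.

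Transcripts of the interferons themselves were close to undetected. Of 19 genes for interferon alpha, beta, epsilon, kappa and lambda, 14 had 0 counts in all 6 libraries, among them Ifnb1, and the whole list held 1 count in the Plg WT libraries and 13 in the Plg KO libraries. A count of 0 allows up to 3 counts, or 0.0824 to 0.115 CPM per library, and covers counting error only. The largest were Ifne, an epithelial interferon, with 8 counts and Ifnl2, a type III interferon, with 3 counts, all in Plg KO 1. None passed the filter, so no ligand was tested.

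Neither chain of the type I receptor passed the test (adjusted p = 0.792 for Ifnar1 and 0.804 for Ifnar2). Ifnar1 had 18.9 ± 1.25 CPM in the Plg WT libraries and 17.1 ± 1.78 in Plg KO, and Ifnar2 had 7.74 ± 0.0168 and 7.02 ± 0.334 CPM. Of 8 genes of the receptors and their signalling, edgeR called 0 (0 at an unadjusted p under 0.05, and 0 by DESeq2 or limma-voom), with a median log2 difference of -0.10. Il10rb, a receptor chain shared by interferon lambda, and Jak1 had log2 differences of 0.30 ± 0.16 and -0.16 ± 0.12. Ifnlr1, the chain specific to interferon lambda, was lowest in Plg WT 2 at 3.14 CPM and highest in Plg KO 2 at 6.22 CPM (0.28 ± 0.27, adjusted p = 0.817). Of 13 tested genes for nucleic acid sensing and its adaptors, 0 were called (at an unadjusted p under 0.05, 1 in each direction, 0 by DESeq2 or limma-voom), and the median was 0.07. The smallest p values were those of Irf5, a factor downstream of Toll-like receptors, at -0.33 ± 0.12, the RNA sensor Tlr3 at 0.72 ± 0.30 and the adaptor Myd88 at 0.30 ± 0.13.

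A wider list of 51 further interferon-stimulated genes, 47 of them tested, was more mixed than the members. Of the 47, 34 had a negative and 13 a positive log2 difference, the median was -0.16, and edgeR called 0 (5 at an unadjusted p under 0.05, 3 of them higher, 0 by limma-voom). DESeq2 called Ifitm1 higher (adjusted p = 0.0113), where it called 1.54% of all genes higher. Ifitm1, which hinders viral entry, had 5.95, 4.53 and 4.65 CPM in Plg WT libraries 1, 2 and 3 and 7.02, 15.4 and 11.6 CPM in Plg KO 1, 2 and 3, with an edgeR log2 difference of 1.16 ± 0.29 (adjusted p = 0.228). Slfn9 and Ifi204, a DNA-binding protein, also had groups that did not overlap and were higher in the Plg KO libraries, at 1.25 ± 0.33 and 0.56 ± 0.17 (adjusted p = 0.255 and 0.359). Without Plg WT 1, edgeR called 2 of these genes lower, Apol9b (-2.32) and Lgals3bp (-0.84), and 2 higher, Isg20 (1.24) and Ly6e (0.74). Isg20, an exonuclease, had 64.2, 30.3 and 22.7 CPM in the Plg WT libraries and 51.8, 60.6 and 76.2 CPM in Plg KO, an order of Plg WT libraries opposite to that of Isg15. Of 19 tested targets of interferon gamma, edgeR called 0 (1 at an unadjusted p under 0.05, higher, 0 by limma-voom). Their median log2 difference was -0.14. The summed level of these targets rose from Plg WT 1 (117.7 CPM) through Plg WT 2 (189.1 CPM) to Plg WT 3 (234.2 CPM). That is the order of the members' sum. Unlike for the members, Plg KO 1 (233.3 CPM) was close to Plg WT 3. Plg KO 2 (143.5 CPM) and Plg KO 3 (144.6 CPM) lay between Plg WT 1 and Plg WT 2. The cause was not tested. DESeq2 called Cd274, the checkpoint ligand PD-L1, higher (adjusted p = 0.0397). Cd274 had 2.42 ± 0.540 CPM in the Plg WT libraries and 4.78 ± 0.978 in Plg KO (0.98 ± 0.25), and the guanylate-binding proteins Gbp4 and Gbp3 had log2 differences of -0.54 ± 0.29 and -0.53 ± 0.38. Apol9b, Lgals3bp, Isg20 and Ly6e were named for their calls after their values were seen.

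Markers of other cell types differed between the libraries, and their part in the result was not tested. Keratinocyte markers were abundant in all libraries, with a summed level of 39022 to 46732 CPM in the Plg WT libraries and 40527 to 49130 CPM in Plg KO. That sum was mostly Krt14, Krt4 and Krt13. The mean of the list in log2(CPM + 0.5), centred per gene, was -0.18, 0.07 and 0.33 in Plg WT 1, 2 and 3. It was 0.16, -0.03 and -0.34 in Plg KO 1, 2 and 3. The summed level of 7 salivary gland markers was 15480, 4509 and 2496 CPM in Plg WT libraries 1, 2 and 3 and 12132, 11808 and 15166 CPM in Plg KO 1, 2 and 3. By these sums, the libraries with the most gland transcripts were those with the lowest levels of the members. Muc5b and Bpifb2 made up most of the gland sum. Amy1 did not share its pattern, with 5.10, 4.71 and 4.74 CPM in Plg WT 1, 2 and 3 and 2.97, 5.17 and 5.91 CPM in Plg KO 1, 2 and 3. Skeletal muscle markers also varied, with sums of 8788, 4581 and 5581 CPM in the Plg WT libraries and 1955, 7793 and 9089 CPM in Plg KO. Among the gland markers, the mucin Muc5b was at 9999 CPM in Plg WT 1 and at 1581 CPM in Plg WT 3. Of the 9 gland markers on the list, Prb1 had 0 counts in all libraries and Smr3a 1 count in total, and neither was tested. The 4 tested B cell markers summed to 65.1, 24.0 and 14.8 CPM in the Plg WT libraries and to 1.94 to 3.31 CPM in Plg KO. The 8 neutrophil markers summed to 37.9 to 76.9 CPM in the Plg WT libraries and to 152.7 to 507.5 CPM in Plg KO. Of 6 markers of plasmacytoid dendritic cells, known as strong producers of interferon alpha, 5 were tested and 0 were called (0 at an unadjusted p under 0.05, and 0 by DESeq2 or limma-voom). Their sum was mostly Ly6d, which epithelium also expresses, and ran from 1610 to 1685 CPM in the Plg WT libraries and from 1455 to 1675 CPM in the Plg KO libraries. Siglech, a defining marker that did not pass the filter, had 22, 4 and 6 counts in Plg WT 1, 2 and 3 and 21, 3 and 8 counts in Plg KO 1, 2 and 3. Ccr9 had 3.30, 4.32 and 5.09 CPM in Plg WT 1, 2 and 3 and 3.29, 3.22 and 2.58 CPM in Plg KO 1, 2 and 3 (log2 difference -0.48 ± 0.23, adjusted p = 0.588). Ccr9 and Ly6d (1454, 1563 and 1569 CPM in Plg WT 1, 2 and 3) had the Plg WT order of the Oas genes. Pacsin1 (10.3, 8.96 and 6.70 CPM) and Klk1 (1.17, 0.750 and 0.384 CPM) had the opposite order. Siglech and Cox6a2 (141.2, 95.0 and 103.9 CPM) had neither order. Cox6a2 was lowest in Plg KO 1 (41.2 CPM) and highest in Plg KO 3 (171.2 CPM), as was the skeletal muscle sum. Which cells its reads came from was not tested, so its level cannot be assigned to plasmacytoid dendritic cells. The monocyte and macrophage markers summed to 64.7 to 79.4 CPM in the Plg WT libraries and 65.2 to 85.9 CPM in Plg KO.

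**Figure D4:**
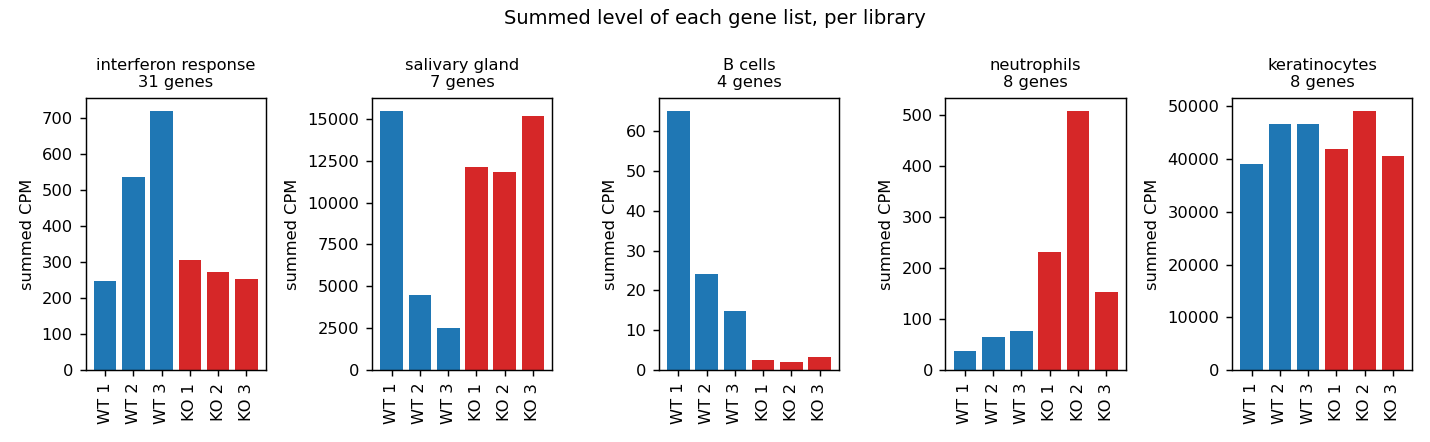
Bars give the summed CPM of the tested genes of 5 lists in each library (blue, Plg WT; red, Plg KO). Plg WT 2 and 3 have the highest sums of the 31 interferon response genes (537.3 and 719.6 CPM) and the lowest of the salivary gland markers (4509 and 2496 CPM).

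The sex of the animals, read from Xist and Ddx3y, also varied within groups. Plg WT 3 and Plg KO 1 had 1475 and 1838 counts of the Y-linked Ddx3y, against at most 2 in any other library. Plg WT 3 was the highest of the 6 libraries for 28 of the 31 members, against 19.3% of all tested genes. The members summed to 248.1 and 537.3 CPM in Plg WT 1 and 2, both read as female, and to 719.6 CPM in Plg WT 3. They summed to 305.8 CPM in Plg KO 1, read as male, and to 271.2 and 251.7 CPM in Plg KO 2 and 3, read as female. With a term for sex in the fit, 0 members were called (0.366% of all tested genes), the median log2 difference was -0.70, and Isg15 had -1.90 with an adjusted p of 0.416. Plg itself had 2 counts in Plg WT 3, 2 in Plg KO 1 and 0 elsewhere, so in this tissue its level gives no check of the genotype.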

How the data were processed

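Gingiva RNA was sequenced from 3 Plg WT and 3 Plg KO samples, as 37 bp paired-end Nextera XT libraries per the labels' protocols. The submitters' processing notes list the builds GRCm38.p3 and mm10 and the tools DESeq2, edgeR, limma and STAR (2.5.2a), without roles. The sources used here do not name the counting tool. The deposited raw counts were tested. The deposited CPM, scaled by TMM by the authors, gave symbols and an alternative. Multiplied by 1 constant per column they gave whole reads for 100% of values. The tolerance was 0.01 reads or 0.01 of the value, whichever was larger, so large values passed in any case. Once rounded, these reads equalled the raw counts in 100% of values and called 42 genes, as the raw counts did. The constants were taken from the raw counts, so this is no independent check. The 22 entries that name no gene took at most 3.55e-05% of a library and were left out.

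Tests used edgeR 4.0.16 (R 4.3.3): TMM, filterByExpr, quasi-likelihood F test, genotype only, Benjamini-Hochberg over 17757 genes. SE is the log2 difference divided by the square root of F. CPM are TMM-normalized. Scripts were tested on simulated data. Alternatives were DESeq2 1.42.0, limma 3.58.1 (voom, and trend on log2 values of CPM as deposited, pseudocount 0.5), other factors and filters, a replicate block, a sex term and leaving out each library. Members and lists were chosen with earlier results of these data known. All members are reported. The 12 with the smallest p and the Ifit, Oas and Mx families are given per library, as are others for which it adds detail. Other lists are represented by the 3 genes with the smallest p, called genes, Ifnar1, Ifnar2 and Ifnb1. A further named gene is not reported here. The replicates of a group differed by more than sampling noise (chi-square per degree of freedom 21.4 to 102.4). Positions, exon lengths and shared windows are from GENCODE M21 (GRCm38). Promoters are from RefSeq GRCm38.p6.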

Additional observations from a re-analysis of the deposited data

How the results depend on the processing

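The number of members called was 0 in edgeR with RLE or upper-quartile factors, without a filter, with at least 1 CPM in at least 3 libraries, with the sex term, and with limma-voom or limma-trend, and 1 with DESeq2. Leaving out 1 library gave 0 to 8, the 8 without Plg WT 1. The median log2 difference of the members ran from -0.85 to -0.19 when 1 library was left out, the latter without Plg WT 3, and stayed negative in the other fits. Of the genes of the wider pathway lists DESeq2 called 2, and leaving out 1 library gave 0 to 4. Over all genes the count of 42 was 402 with DESeq2, 162 without a filter, 65 with the sex term and 2 to 219 with 1 library left out. With the replicate number as a block it was 2, and 0 members were called. Same-numbered libraries did not deviate together (correlations -0.32, -0.04 and -0.29), so the numbers were not taken to pair them. No member changed sign under another tool, scaling or filter, the block or the sex term. With 1 library left out, signs changed for Ifit2 (-0.22 to 0.71), Ifit3 (-0.76 to 0.23), Ifit3b (-0.47 to 0.40), Irf9 (-0.42 to 0.12), Mx2 (-1.32 to 0.030), Parp14 (-0.31 to 0.18) and Zbp1 (-0.34 to 0.11). The cause was not tested. Dhx58 passed with DESeq2 (log2 difference -0.92). Depth limits Oas3, Oas1g, Mx1 and Mx2, whose lowest libraries held 6, 7, 10 and 13 counts.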
